A study of Mus musculus with 9 samples.

Results

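After 4 h of tunicamycin, the RNA of GM-BMDM was compared with that of M-BMDM. These are the labels' names for 2 kinds of macrophage grown from bone marrow. Each kind had 1 treated library, so the comparison used 2 of the 9 mouse libraries of the study. It covered the 11049 genes of 22060 whose level, averaged over the 4 macrophage libraries, reached 1 CPM (the read count scaled by effective library size). The untreated libraries of both kinds, 0 h of tunicamycin, are set beside the treated pair. All 4 came from bone marrow of strain C57BL, with no genetic change given. The labels do not spell out the prefixes GM and M, and the sources used here do not give the concentration of tunicamycin. Nothing in the labels says how many animals or cultures stood behind a library. The study, by its title, asked about stress of the endoplasmic reticulum (ER) that passes between macrophages and tumour cells. Its other 5 libraries, of Lewis lung carcinoma cells, were not used here.

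Tunicamycin blocks the first step of N-linked glycosylation in the ER, the compartment in which secreted and surface proteins are folded. Unfolded protein there turns on ER chaperones and, through the kinase PERK, the transcription factors ATF4 and CHOP. Macrophages act on their neighbours through secreted chemokines, cytokines, proteases and matrix proteins, and they sense their surroundings through surface receptors, lectins and integrins. The RNAs that encode such products are described here. No protein was measured.

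Assigned reads totalled 42751176 in treated GM-BMDM and 39592377 in treated M-BMDM, and 42107553 and 37695079 in their untreated counterparts. All 13 macrophage markers listed (1 higher and 5 lower in treated GM-BMDM) were detected in both treated libraries, among them Adgre1, which encodes F4/80, and the growth factor receptor gene Csf1r. The ATF4-CHOP list, a check of the treatment, summed to 1499 CPM in untreated and 1848 CPM in treated GM-BMDM, and to 979 and 3672 CPM in M-BMDM. Dendritic cell markers (14 listed, 8 higher and 0 lower of 11 compared) summed to 1217 CPM in treated GM-BMDM and 44.4 CPM in treated M-BMDM, with 1059 CPM of the former from Itgax. Neutrophil markers (15 listed, 7 higher and 1 lower of 8 compared) summed to 1627 and 233 CPM, with 1486 CPM of the former from Mmp8 and 199 CPM of the latter from Csf3r. Ly6g, which defines neutrophils, had 0 reads in treated M-BMDM. Markers of mast cells, basophils and eosinophils (14 listed, 5 higher and 1 lower of 6 compared) summed to 113 and 3.32 CPM. The defining mast cell genes Tpsab1 and Mcpt4 had 0 reads in both treated libraries, and Fcer1a, Tpsb2 and Epx also had 0 reads in treated M-BMDM. Erythroid and platelet markers (10 listed, 3 of 3 compared higher) summed to 178 and 19.8 CPM, of which Pf4 gave 160.1 and 16.4 CPM. Lymphocyte markers (12 listed) summed to 1.155 and 9.22 CPM and stromal markers (9 listed) to 9.45 and 6.75 CPM. All 15 mitosis genes listed were at least 2-fold higher in treated GM-BMDM. The part of these cells or of proliferation in any result below was not tested. In bulk RNA, fewer cells of a type and less RNA per cell cannot be told apart.

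With 1 library per group there was no replicate check and no test of the treated pair. Levels of a gene are given as untreated and then treated library of each kind. Folds are ratios of treated GM-BMDM to treated M-BMDM (or the inverse, written as lower). The range after a fold is the exact Clopper-Pearson 95% interval. It covers counting error only, since reads are not independent molecules. A gene was counted as higher or lower when log2(CPM + 1) differed by at least 1, a 2-fold difference that understates the change of low genes. A test was possible for the kind of macrophage over both pairs together, in an additive fit of the 4 libraries with kind and tunicamycin as terms (the quasi-likelihood test of edgeR, with p-values adjusted over all 11049 genes by Benjamini and Hochberg). That fit has 1 residual degree of freedom and speaks of the treated and untreated pairs jointly. Its residual is the change of the kind difference with tunicamycin, mixed with noise between libraries, which may be technical. No condition had a second library, so these parts cannot be told apart. A gene whose response to tunicamycin differs between kinds is thus less readily called.

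Across all genes compared, 1388 (12.6%) were higher by 2-fold or more in treated GM-BMDM and 864 (7.82%) lower, together 2252 (20.4%). The median difference over all genes compared was -0.04. The secreted and surface products were followed in 22 lists with 638 genes, of which 446 were compared, 191 lay below the minimum level and 1 was not found in the table. The lists follow gene families, so the surface lists also hold members whose products act inside the cell, such as H2-DMa and Tlr9. The secreted lists likewise hold membrane-bound members, among them Plaur, Procr, Spint1, Mmp14, Adam17 and Cxcl16. Of 192 members of the secreted lists compared, 85 were higher and 35 lower in treated GM-BMDM (62.5% past 2-fold, median difference 0.75). Of 254 surface products, 90 were higher and 53 lower (56.3% past 2-fold, median difference 0.16). These shares are for members that passed the minimum level, which can be passed through the kind where a gene is high, and 93 of the 446 lay under 1 CPM in one treated library. With every listed gene kept, 39.6% of secreted products were past 2-fold and their median difference was 0.070. With every gene of the table kept likewise, 1459 of 22060 were higher and 887 lower, with a median difference of 0. The secreted median was 0.38 with a pseudocount of 5 CPM and 0.43 on FPKM. The 3 members just above the minimum were Il27, Clcf1 and Sparc, with means of 1.004, 1.02 and 1.04 CPM, and the 3 just below it were Treml4, Fstl3 and Apoc1, with 0.991, 0.963 and 0.933 CPM. In the additive fit 2803 genes (25.4%) were called higher and 2765 (25%) lower in GM-BMDM, together 50.4%. Of the secreted products 101 were called higher and 49 lower, and of the surface products 111 and 87. The CPM of the 2 GM-BMDM and 2 M-BMDM libraries did not overlap for 76.4% of all genes and for 379 (85.0%) of the 446 members. Among the 263 members past 2-fold they did not overlap for 257, the exceptions being Cxcl1, Cxcl2, Tnfsf9, Gdf15, Ccrl2 and Cd69. For every other secreted or surface gene called higher or lower below, both libraries of one kind thus lay above both of the other. The 263 were chosen on their gap in the treated pair, which favours this count, so it is a description. The same share among all 2252 genes past 2-fold is not given here.

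**Figure D1:**
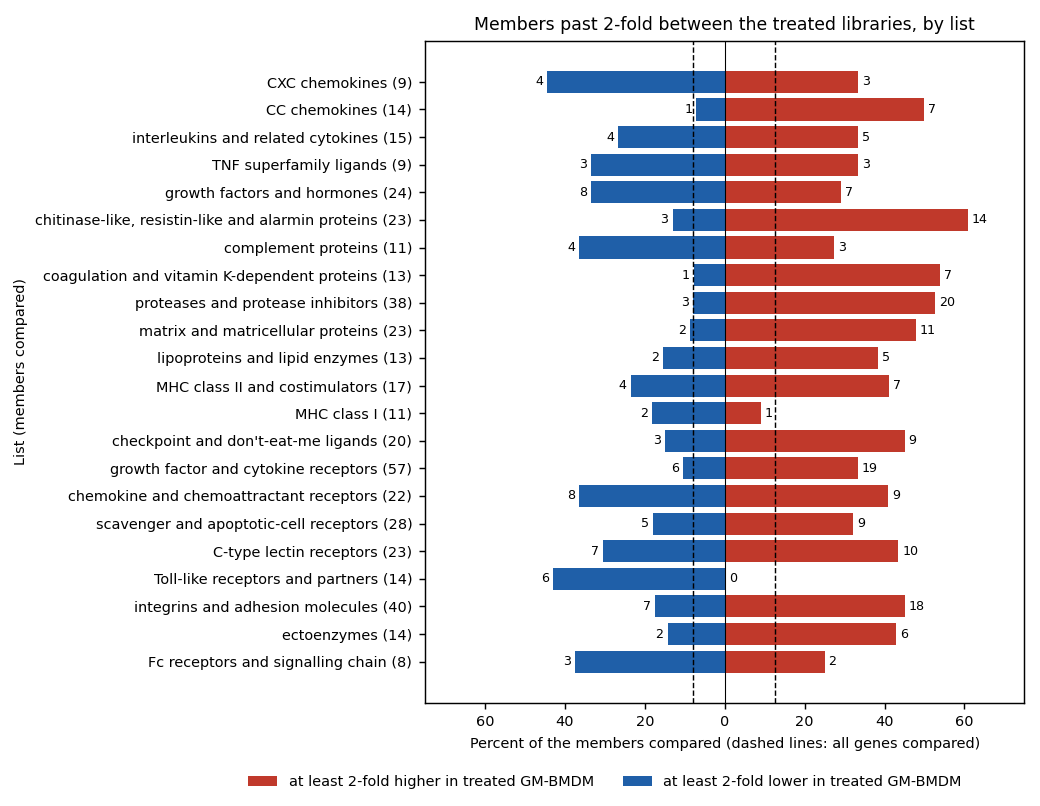
Percent of the compared members of each list that were at least 2-fold higher (red, right) or lower (blue, left) in the treated GM-BMDM library than in the treated M-BMDM library, with the count at the bar's end and the number of members compared in brackets. Dashed lines mark the 12.6% and 7.82% of all genes. Of 14 Toll-like receptors and partners none was higher and 6 were lower, and of 23 chitinase-like, resistin-like and alarmin proteins 14 were higher.

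Among the most abundant secreted products the leader was shared and the followers differed between the treated kinds. On the length-scaled FPKM values, which allow genes to be compared, lysozyme (Lyz2) led both libraries, with 24996 FPKM in GM-BMDM and 17694 in M-BMDM. It was followed in GM-BMDM by the chemokine Ccl6 (8432 FPKM), the phosphoprotein osteopontin, Spp1 (6500.3), and prosaposin, Psap (6354). In M-BMDM the apolipoprotein gene Apoe (6882 FPKM) and Psap (5275) came next. The 10 most abundant secreted products of each library had 6 genes in common, and the 10 most abundant surface products 4. Surface RNA was led in both by B2m, the light chain of MHC class I, at 3280.3 FPKM in GM-BMDM and 3273 in M-BMDM. The glycoprotein Gpnmb (1836 FPKM) and the fungal lectin receptors Clec4n (829.6) and Clec7a (782) followed in GM-BMDM. In M-BMDM the followers were the class I heavy chain H2-D1 (1156 FPKM), Gpnmb (1125), Csf1r (1035) and Adgre1 (838).
The secreted lists together took 15.04% of all reads in treated GM-BMDM and 10.04% in treated M-BMDM, against 15.2% and 12.6% in the untreated libraries. Single genes took sizeable and differing shares. Lyz2 took 3.29% of reads in treated GM-BMDM and 2.33% in treated M-BMDM, where it had 3.87% without tunicamycin, and Psap took 1.74% and 1.45% in the treated pair. Ccl6 took 1.51% of reads in treated GM-BMDM and 0.0311% in treated M-BMDM, and Apoe took 0.152% and 1.47%.

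Chemokines, the secreted attractants of leukocytes, are described by subfamily. Of 14 CC chemokines compared, 7 were higher and 1 lower in treated GM-BMDM, with a median difference of 1.01. Ccl17, which attracts Th2 and regulatory T cells through Ccr4, stood at 286 and 141 CPM in GM-BMDM against 0.0537 and 0.118 CPM in M-BMDM. The treated M-BMDM library had 5 reads of it and treated GM-BMDM 5968, which made it 1187-fold higher (508 to 3656). Ccl22, a ligand of the same receptor, lies near it on chromosome 8 (Ccl22 at chr8:94745590-94751699 and Ccl17 at chr8:94810453-94812036, GRCm38). Ccl22 was at 75.8 and 47.9 CPM in GM-BMDM against 0.0537 and 0.213 CPM in M-BMDM. It was 225-fold higher (118 to 492). Both Ccr4 ligands were nearly absent from M-BMDM, and in GM-BMDM both were lower with tunicamycin than without.
Ccl6, a chemokine of rodent myeloid cells, was at 16970 and 15248 CPM in GM-BMDM against 457 and 291 CPM in M-BMDM, and 52.3-fold higher (51.4 to 53.3). The monocyte attractant Ccl2 was at 55.1 and 66.7 CPM in GM-BMDM against 2.28 and 3.29 CPM in M-BMDM. It was 20.2-fold higher (17.1 to 24.2), and high in both GM-BMDM libraries. Ccl7 (6.53-fold higher), Ccl9 (3.85-fold higher) and the eotaxin Ccl24 (6.27-fold higher) were also higher. Ccl5, which attracts T cells, was the lower member, at 2.78 and 2.19 CPM in GM-BMDM against 7.08 and 7.65 CPM in M-BMDM. In the additive fit 9 CC chemokines were called higher and 2 lower, Ccl17 with log2 fold change 11.14 ± 0.30 SE, adjusted p = 2.3e-06 by edgeR's quasi-likelihood test. This SE was worked back from the F statistic of the test and understates the counting error of the 5 reads in treated M-BMDM. Ccl17 was picked out by its difference in the treated libraries, which the fit contains, so its call is no further evidence.

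Among 9 CXC chemokines, 3 were higher and 4 lower in treated GM-BMDM. The 3 higher and 2 of the lower genes lie close together on chromosome 5 (GRCm38): Ppbp at chr5:90768518-90770063, Pf4 at chr5:90772435-90773383, Cxcl3 at chr5:90786103-90789600, Cxcl1 at chr5:90891241-90893115 and Cxcl2 at chr5:90903871-90905938. Cxcl3, a neutrophil attractant that signals through Cxcr2, was at 10.9 and 17.0 CPM in GM-BMDM against 0.322 and 0.427 CPM in M-BMDM. It was 39.8-fold higher (24.98 to 67.5). The platelet chemokine gene Pf4 was at 166 and 160.1 CPM in GM-BMDM against 24.8 and 16.4 CPM in M-BMDM, and 9.79-fold higher (9.05 to 10.6), and the related Ppbp was 11.4-fold higher (8.87 to 14.98). Pf4 is also in the erythroid and platelet marker list.
Cxcl2, which acts on neutrophils through the same receptor as Cxcl3, went the other way. It was at 6.48 and 16.0 CPM in GM-BMDM against 14.9 and 126 CPM in M-BMDM, so that treated M-BMDM stood alone at the top and treated GM-BMDM lay near untreated M-BMDM. It was 7.87-fold lower (7.26 to 8.53). Cxcl1, another ligand of Cxcr2, was at 0.671 and 0.895 CPM in GM-BMDM against 0.751 and 4.38 CPM in M-BMDM. The other 3 libraries lay close together and treated M-BMDM above them, and the treated pair was 4.90-fold lower (3.44 to 7.14). Cxcl1 and Cxcl2 were the members of the cluster that were lower in treated GM-BMDM. Reads of Cxcl1, Cxcl2 and Cxcl3 may be shared between these closely related genes, and the sources used here do not say how multimapping reads were counted.
Cxcl10, the interferon-induced ligand of Cxcr3, was at 0.472 and 0.707 CPM in GM-BMDM against 24.5 and 48.5 CPM in M-BMDM. It was 68.7-fold lower (47.9 to 102). It was 1 of a wider group, in which 23 of 29 interferon-stimulated genes listed were lower in treated GM-BMDM and 1 higher. The membrane-bound chemokine gene Cxcl16 was 3.35-fold lower (3.24 to 3.48).

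The start regions of 4 of these genes are printed because Cxcl3 lay on the other side of the comparison from its neighbours Cxcl1 and Cxcl2. Cxcl10, lower in treated GM-BMDM like Cxcl1 and Cxcl2, is printed beside them. Each line gives the 250 bases before the RefSeq start (GRCm38.p6), read 5′ to 3′ on the gene's strand, at chr5:90890995-90891244 (plus strand), chr5:90903649-90903898 (plus), chr5:90785851-90786100 (plus) and chr5:92348890-92349139 (minus). Capitals mark matches to a form of the NF-kB site (GGG, then any 2 bases, then TTTCC) on either strand in the first 3 and to the core of the interferon-stimulated response element (GAAA, then any 2 bases, then GAAA) in Cxcl10.
Cxcl1: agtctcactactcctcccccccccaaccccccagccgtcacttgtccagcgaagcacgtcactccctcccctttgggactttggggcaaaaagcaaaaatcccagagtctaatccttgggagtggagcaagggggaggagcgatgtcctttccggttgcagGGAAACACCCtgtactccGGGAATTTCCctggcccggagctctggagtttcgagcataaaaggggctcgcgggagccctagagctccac
Cxcl2: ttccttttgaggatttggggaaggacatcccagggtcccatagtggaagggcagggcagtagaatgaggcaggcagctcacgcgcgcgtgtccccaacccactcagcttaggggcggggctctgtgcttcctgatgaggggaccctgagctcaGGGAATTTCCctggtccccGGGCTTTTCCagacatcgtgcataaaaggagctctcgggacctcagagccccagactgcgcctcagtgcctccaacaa
Cxcl3: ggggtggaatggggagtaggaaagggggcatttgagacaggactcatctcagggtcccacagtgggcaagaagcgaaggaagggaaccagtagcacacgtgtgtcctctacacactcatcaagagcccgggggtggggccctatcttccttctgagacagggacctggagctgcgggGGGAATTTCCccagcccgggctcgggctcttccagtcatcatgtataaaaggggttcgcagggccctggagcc
Cxcl10: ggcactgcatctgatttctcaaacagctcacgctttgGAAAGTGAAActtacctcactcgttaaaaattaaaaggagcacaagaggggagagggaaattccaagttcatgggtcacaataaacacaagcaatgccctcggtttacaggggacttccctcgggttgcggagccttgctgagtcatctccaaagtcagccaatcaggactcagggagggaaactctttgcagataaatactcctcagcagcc
Cxcl1 held 2 matches to the NF-kB form (1 of them on the minus strand), Cxcl2 held 2 and Cxcl3 held 1. The nearest match to the start began 71 bases before it in Cxcl1, 78 in Cxcl2 and 73 in Cxcl3. Cxcl3, higher in treated GM-BMDM, and Cxcl1 and Cxcl2, lower there, all held the letters GGGAATTTCC within their windows. The match in Cxcl10 began 213 bases before its start. Cxcl10 held no match to the NF-kB form searched. Other forms of that site were not searched, so whether Cxcl10 lacks NF-kB sites was not tested.
Over windows of 250 bases before to 50 after each start, both strands, the NF-kB form was in 1.63% of 32851 RefSeq windows and in 2.05% of 8923 compared genes with a window. It was in 5.3% of 132 members higher in treated GM-BMDM, 8.06% of 62 lower and 5.37% of 149 members under 2-fold. The interferon element was in 3.44% of all windows, 4.0% of the compared genes, and 6.06%, 8.06% and 9.4% of these members. TGATGNAA, the core of the CHOP-ATF4 composite element, was in 3.97% of all windows, 2.86% of the compared genes, and 4.55%, 3.23% and 4.03% of the members. Windows were found for 343 of the 446 members. A match is a run of letters, not a measured binding site.

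Interleukins and related cytokines were divided, with 5 of 15 higher and 4 lower. Il1a, the membrane-held and alarm form of interleukin-1, was at 84.9 and 113 CPM in GM-BMDM against 0.429 and 1.87 CPM in M-BMDM, and 60.2-fold higher (48.2 to 76.1). Il1rn, which encodes the receptor antagonist of interleukin-1, was at 251.2 and 238 CPM in GM-BMDM against 16.4 and 14.1 CPM in M-BMDM. It was 16.9-fold higher (15.6 to 18.4). Agonist and antagonist genes were thus both higher in treated GM-BMDM, while Il1b differed by 0.08 on the log2 scale.
Csf1, the ligand of Csf1r, was at 45.0 and 52.5 CPM in GM-BMDM against 5.05 and 12.2 CPM in M-BMDM. All 4 libraries kept the order of kinds, with untreated M-BMDM lowest, and the treated pair was 4.31-fold higher (3.91 to 4.75). The cytokine gene Clcf1 was 12.4-fold higher (5.45 to 34.9) and Mif 2.19-fold higher (2.07 to 2.32). The lower members were Ebi3, a subunit of interleukin-27, at 16.8 and 14.7 CPM in GM-BMDM against 63.4 and 46.2 CPM in M-BMDM, Il15, which supports natural killer and T cells (2.50-fold lower), and the interleukin-18 inhibitor Il18bp (2.21-fold lower). The anti-inflammatory cytokine gene Il10 was at 0.0745 and 0 CPM in GM-BMDM against 9.77 and 1.68 CPM in M-BMDM. It had 71 reads in treated M-BMDM and 0 in treated GM-BMDM, and was at least 23.8-fold lower against a floor of 3 reads in that library.

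TNF superfamily ligands had 3 of 9 higher and 3 lower. Tnfsf8, the CD30 ligand, was at 29.1 and 26.1 CPM in GM-BMDM against 0.537 and 1.23 CPM in M-BMDM, and 21.2-fold higher (16.0 to 28.5). Tnfsf14, which encodes LIGHT, was at 10.6 and 15.8 CPM in GM-BMDM against 2.09 and 2.56 CPM in M-BMDM. The treated pair was 6.18-fold higher (5.03 to 7.64), and Tnfsf4, the OX40 ligand, was 27.1-fold higher (12.9 to 68.4).
Tnf itself was at 20.6 and 23.2 CPM in GM-BMDM against 40.5 and 97.9 CPM in M-BMDM. Treated M-BMDM held the highest level, and the treated pair was 4.23-fold lower (3.94 to 4.53). The death ligand gene Tnfsf10, which encodes TRAIL, was at 0.745 and 0.966 CPM in GM-BMDM against 7.89 and 6.61 CPM in M-BMDM. It was 6.84-fold lower (4.92 to 9.75). Tnfsf9, the ligand of 4-1BB, was at 3.60 and 3.77 CPM in GM-BMDM against 3.65 and 11.97 CPM in M-BMDM, with 3 libraries close together and treated M-BMDM above them.

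Growth factors and hormones held 7 higher and 8 lower of 24. Inhba, the subunit of activin A, was at 87.5 and 104 CPM in GM-BMDM against 0.322 and 0.403 CPM in M-BMDM, and 259-fold higher (162 to 445). Fst, which encodes the activin-binding inhibitor follistatin, was 76.6-fold higher (20.8 to 638) on 2 reads in treated M-BMDM. The follistatin-like glycoprotein gene Fstl1 was at 256 and 226 CPM in GM-BMDM against 1.72 and 1.37 CPM in M-BMDM. It was 164-fold higher (127 to 217), and placental growth factor, Pgf, was 48.4-fold higher (23.3 to 121).
The remaining higher members were Pdgfc (11.4-fold higher), Hbegf (5.62-fold higher) and Angptl4 (3.22-fold higher). Bmp2, a bone morphogenetic protein, was the growth factor farthest in the other direction, at 0.969 and 0.919 CPM in GM-BMDM against 22.5 and 31.97 CPM in M-BMDM. It was 34.8-fold lower (25.3 to 49.1). The platelet-derived factor Pdgfb was 5.37-fold lower, the angiogenic factor Vegfa 3.09-fold lower, the binding protein Igfbp4 3.69-fold lower, Gdf3 4.67-fold lower and the insulin-like growth factor Igf1 2.17-fold lower. Vegfa was at 65.4 and 95.03 CPM in GM-BMDM against 132 and 294 CPM in M-BMDM. Its level in treated M-BMDM stood above all 3 other libraries.

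Chitinase-like, resistin-like and alarmin proteins had 14 of 23 higher and 3 lower, with a median difference of 1.60. Chil3, a chitinase-like protein also called Ym1, was at 2822 and 2930.3 CPM in GM-BMDM against 1.91 and 7.35 CPM in M-BMDM. It was 399-fold higher (357 to 447), with both GM-BMDM libraries far above both M-BMDM libraries. The ribonuclease gene Ear2 was at 159.6 and 146 CPM in GM-BMDM against 0.242 and 0.332 CPM in M-BMDM, and 439-fold higher (261 to 803). Its close relative Ear6 was 752-fold higher (208 to 6213) on 2 reads in treated M-BMDM. Reads of these 2 may be shared.
The annexin gene Anxa1 was at 1629.6 and 1459.9 CPM in GM-BMDM against 295 and 227 CPM in M-BMDM and 6.43-fold higher (6.29 to 6.57). The calcium-binding genes S100a11, S100a10 and S100a6 were 25.8-fold higher, 5.42-fold higher and 2.52-fold higher. Neutrophil granule and alarmin genes were also higher: S100a8 17.6-fold higher, S100a9 20.1-fold higher, Ltf 24.8-fold higher, Ngp 31.3-fold higher and Lcn2 4.09-fold higher. These 5 are neutrophil markers too. That list summed to 1627 against 233 CPM, with 1486 CPM of the former from Mmp8 and 199 CPM of the latter from Csf3r. The sums thus say little about these 5 genes. The part of neutrophils in the difference of the 5 was not tested.
Cd5l, a scavenger-receptor family protein secreted by macrophages, was at 0.745 and 0.518 CPM in GM-BMDM against 91.0 and 93.7 CPM in M-BMDM. It was 181-fold lower (119 to 289), with both M-BMDM libraries above 90 CPM and both GM-BMDM libraries below 1. The acute-phase gene Saa3 was at 43.1 and 43.5 CPM in GM-BMDM against 250.9 and 233 CPM in M-BMDM and 5.35-fold lower (5.09 to 5.63). In the additive fit 17 members of this list were called higher and 3 lower.

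Complement RNA was divided by component. The 3 chains of C1q, the recognition protein of the classical pathway, were lower in treated GM-BMDM. C1qa, the first of them, was at 121 and 99.1 CPM in GM-BMDM against 856 and 532 CPM in M-BMDM, and 5.37-fold lower (5.19 to 5.55). C1qb was 4.41-fold lower (4.33 to 4.50) and C1qc 5.78-fold lower (5.64 to 5.91). For all 3 genes treated M-BMDM lay below untreated M-BMDM and above both GM-BMDM libraries.
The proteases that join C1q went the other way. C1ra was at 26.6 and 29.1 CPM in GM-BMDM against 3.84 and 3.67 CPM in M-BMDM, and 7.93-fold higher (6.70 to 9.43), and C1s1 was 16.5-fold higher (6.80 to 52.2) on 5 reads in treated M-BMDM. C4b was 13.8-fold lower (7.27 to 29.4), while C3, the central component, differed by -0.45 on the log2 scale.

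Coagulation and vitamin K-dependent proteins had 7 of 13 higher and 1 lower. The clotting factor genes F7, F10 and F5 were each higher in both GM-BMDM libraries. F7 was at 100.4 and 98.7 CPM in GM-BMDM against 2.25 and 2.49 CPM in M-BMDM, and 39.7-fold higher (32.7 to 48.6). F10 was at 280.1 and 302 CPM in GM-BMDM against 16.9 and 18.7 CPM in M-BMDM, and 16.2-fold higher (15.03 to 17.4). F5 was 12.7-fold higher (10.5 to 15.4). The adhesive proteins Vwf (3.53-fold higher) and Thbs1 (3.30-fold higher) and the protein C receptor Procr (3.66-fold higher) were also higher.
Gas6, the vitamin K-dependent ligand of the receptors Tyro3, Axl and Mertk, was the lower member, at 40.5 and 35.4 CPM in GM-BMDM against 859.6 and 570.2 CPM in M-BMDM. It was 16.1-fold lower (15.3 to 17.0). Pros1, which encodes protein S and binds the same family, was at 110.3 and 107 CPM in GM-BMDM against 62.2 and 36.5 CPM in M-BMDM, and 2.93-fold higher (2.77 to 3.11). The 2 ligands of this receptor family thus lay on opposite sides.

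Proteases and their inhibitors had 20 of 38 higher and 3 lower. Mmp12, the macrophage elastase, was at 11202 and 10734 CPM in GM-BMDM against 263 and 289 CPM in M-BMDM. It was 37.1-fold higher (36.4 to 37.8), and took 1.07% of all reads in treated GM-BMDM against 0.0309% in treated M-BMDM. The collagenase Mmp8 was at 1459 and 1486 CPM in GM-BMDM against 45.6 and 25.7 CPM in M-BMDM, and 57.8-fold higher (54.5 to 61.5). Mmp8 is also among the neutrophil markers.
The gelatinase Mmp2 was at 66.0 and 64.0 CPM in GM-BMDM against 0.778 and 0.853 CPM in M-BMDM, and 75.04-fold higher (54.1 to 107). Mmp13, Mmp19 and the membrane-anchored Mmp14 were 16.7-fold higher, 10.8-fold higher and 2.69-fold higher. Mmp27 was 2.24-fold lower, and Mmp9, a second gelatinase, differed by -0.65 on the log2 scale, so the metalloproteinases were not uniform in direction.
Genes of plasminogen activation were higher for a protease, its receptor and an inhibitor. Plau, the protease urokinase, was at 264 and 260.1 CPM in GM-BMDM against 24.9 and 37.8 CPM in M-BMDM, and 6.88-fold higher (6.52 to 7.25). Its receptor gene Plaur was at 424 and 433 CPM in GM-BMDM against 18.6 and 21.5 CPM in M-BMDM, and 20.2-fold higher (18.9 to 21.6). The inhibitor gene Serpinb2 was at 27.5 and 39.9 CPM in GM-BMDM against 0.295 and 0.379 CPM in M-BMDM, and 105-fold higher (64.6 to 184). Spint1, a membrane-bound inhibitor of the activator of hepatocyte growth factor, was at 264 and 270.5 CPM in GM-BMDM against 0.698 and 0.758 CPM in M-BMDM. It was 357-fold higher (253 to 522), and under 1 CPM in both M-BMDM libraries. Among cathepsins Ctsk was 13.5-fold higher, Ctsl 2.98-fold higher, Ctsd 2.35-fold higher and Ctss 2.01-fold higher, and Ctsb differed by -0.34. Adam17, the sheddase that releases TNF from the cell surface, was at 323 and 308 CPM in GM-BMDM against 735 and 753 CPM in M-BMDM, and 2.44-fold lower (2.40 to 2.49).

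Matrix and matricellular proteins had 11 of 23 higher and 2 lower. Ccn3, a matricellular growth regulator, was at 369.9 and 332 CPM in GM-BMDM against 0.0537 and 0.308 CPM in M-BMDM. It was 1077-fold higher (629.8 to 2024). Fibronectin, Fn1, was at 1205 and 857 CPM in GM-BMDM against 1.80 and 2.92 CPM in M-BMDM, and 294-fold higher (246 to 354). Fn1 was lower with than without tunicamycin in GM-BMDM and still far above both M-BMDM libraries.
Mfge8, which bridges apoptotic cells to phagocytes, was at 1474 and 1453 CPM in GM-BMDM against 52.4 and 54.2 CPM in M-BMDM, and 26.8-fold higher (25.7 to 27.9). The proteoglycan Vcan was 25.7-fold higher (21.7 to 30.7) and Spp1 11.002-fold higher (10.9 to 11.1). Col18a1, the collagen that gives rise to endostatin, was the farthest in the other direction on the log2(CPM + 1) scale, at 0.795 and 1.01 CPM in GM-BMDM against 20.3 and 29.6 CPM in M-BMDM. It was 29.2-fold lower (21.5 to 40.5). The laminin chain gene Lama3 had 0 reads in treated GM-BMDM and 199 in treated M-BMDM, at least 66.7-fold lower against a floor of 3 reads. The list's direction depends on the minimum level, since its median difference was 0.95 over members compared and -0.07 over all 42 listed.

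Among secreted lipid carriers and enzymes 5 of 13 were higher and 2 lower. Apoe was at 1455 and 1533 CPM in GM-BMDM against 18350 and 13805 CPM in M-BMDM. It was 9.003-fold lower (8.93 to 9.08). The phospholipid transfer protein gene Pltp was at 36.5 and 29.3 CPM in GM-BMDM against 441 and 406 CPM in M-BMDM, and 13.9-fold lower (13.1 to 14.7). Apoe was lower with than without tunicamycin in M-BMDM, and still the second most abundant secreted RNA there by FPKM.
On the other side stood Rbp4, the retinol carrier, at 49.2 and 38.6 CPM in GM-BMDM against 0.510 and 0.190 CPM in M-BMDM. It was 203-fold higher (103 to 472). Clu, which encodes the extracellular chaperone clusterin, was at 11.7 and 10.1 CPM in GM-BMDM against 0.483 and 0.403 CPM in M-BMDM, and 25.03-fold higher (15.5 to 43.4). Lipoprotein lipase, Lpl, was at 2639 and 2682 CPM in GM-BMDM against 1089 and 983 CPM in M-BMDM, and 2.73-fold higher (2.70 to 2.76).

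**Figure D2:**
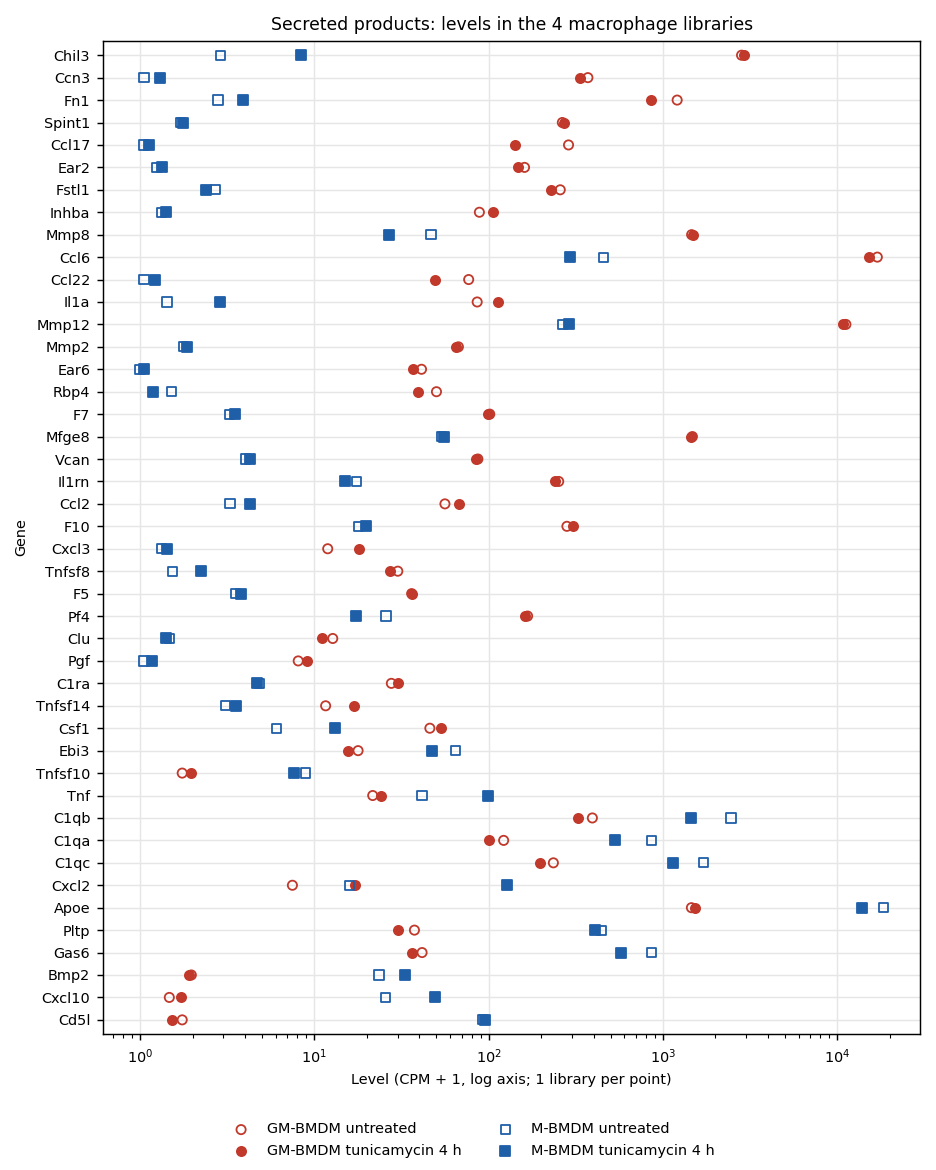
Levels (CPM + 1, log axis) of the 44 secreted products named by rule in each of the 4 macrophage libraries, sorted by the treated difference. Circles are GM-BMDM and squares M-BMDM, open for untreated and filled for 4 h of tunicamycin. For most genes the 2 points of a kind lie together and apart from the other kind, while Cxcl2 and Tnf have treated M-BMDM apart from the other 3 libraries.

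In the lists grouped as surface products, genes of antigen presentation differed by step. The H2-DM and H2-O genes are in the class II list, although their products act in endosomes rather than at the cell surface. Of 17 MHC class II genes and costimulators 7 were higher and 4 lower in treated GM-BMDM. H2-DMa, a subunit of the peptide exchanger H2-DM, was at 187 and 143 CPM in GM-BMDM against 36.3 and 19.4 CPM in M-BMDM, and 7.36-fold higher (6.84 to 7.92). Its partner genes H2-DMb1 and H2-DMb2 were 2.93-fold higher and 11.04-fold higher, and the regulators H2-Oa and H2-Ob 3.58-fold higher and 6.39-fold higher. The class II chains themselves differed by less, with log2 differences of 0.53 for H2-Aa, 0.58 for H2-Ab1 and 0.26 for H2-Eb1.
The costimulators split as well. Cd80 was 2.26-fold higher (1.99 to 2.57), and its relative Cd86 2.27-fold lower (2.11 to 2.45). Cd83, which stabilises class II at the surface, was at 11.996 and 11.97 CPM in GM-BMDM against 62.1 and 174 CPM in M-BMDM. It was 14.6-fold lower (13.3 to 16.0), with treated M-BMDM above the other libraries. Cd40, the receptor of CD40 ligand, was at 1.44 and 1.155 CPM in GM-BMDM against 15.2 and 19.01 CPM in M-BMDM, and 16.5-fold lower (12.3 to 22.4). Icosl, the ligand of the T cell costimulator ICOS, was at 25.8 and 28.0 CPM in GM-BMDM against 45.1 and 143 CPM in M-BMDM. It was 5.13-fold lower (4.82 to 5.46), and treated M-BMDM again stood highest.

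MHC class I genes lay closer, with 1 of 11 higher and 2 lower. Mr1, which presents vitamin B metabolites, was at 122 and 111 CPM in GM-BMDM against 20.7 and 13.6 CPM in M-BMDM, and 8.22-fold higher (7.54 to 8.98). The non-classical genes H2-T24 and H2-Q4 were 2.88-fold lower (2.69 to 3.09) and 2.47-fold lower (2.33 to 2.62). H2-T23, which encodes Qa-1, was at 188 and 168 CPM in GM-BMDM against 311 and 261 CPM in M-BMDM, a difference under 2-fold, and B2m differed by 0.11 on the log2 scale. Reads of H2 genes may be shared between near-identical copies.

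Checkpoint ligands and signals that hold back phagocytes had 9 of 20 higher and 3 lower. Pdcd1lg2, which encodes PD-L2, was at 37.6 and 27.6 CPM in GM-BMDM against 0.483 and 0.711 CPM in M-BMDM, and 38.8-fold higher (27.0 to 57.8). Cd274, which encodes PD-L1, was at 338 and 425 CPM in GM-BMDM against 49.5 and 129 CPM in M-BMDM. It was 3.29-fold higher (3.19 to 3.39), and treated M-BMDM lay nearer to GM-BMDM than untreated M-BMDM did. Siglecf, a sialic acid-binding lectin that is also an eosinophil marker, was at 93.9 and 73.5 CPM in GM-BMDM against 0.617 and 0.427 CPM in M-BMDM and 172-fold higher (109 to 291).
Cd24a, a ligand of Siglec receptors, was at 338 and 221 CPM in GM-BMDM against 16.1 and 14.4 CPM in M-BMDM, and 15.4-fold higher (14.2 to 16.7). Cd200 was 12.7-fold higher (9.79 to 16.9), and Siglecg had 106 reads in treated GM-BMDM and 0 in treated M-BMDM, at least 35.1-fold higher against a floor of 3 reads. Siglec1, or CD169, a sialic acid-binding receptor of macrophages, was at 38.9 and 36.0 CPM in GM-BMDM against 566 and 454 CPM in M-BMDM, and 12.6-fold lower (11.98 to 13.3). The signal regulator Sirpa and its ligand Cd47 differed by -0.66 and -0.07 on the log2 scale.

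Among 57 growth factor and cytokine receptors 19 were higher and 6 lower. Met, the receptor of hepatocyte growth factor, was at 174 and 151 CPM in GM-BMDM against 2.31 and 1.97 CPM in M-BMDM, and 77.0-fold higher (62.0 to 96.8). Il1rl2, a receptor of the interleukin-36 cytokines, was at 69.6 and 69.5 CPM in GM-BMDM against 0.322 and 1.37 CPM in M-BMDM, and 50.6-fold higher (39.0 to 66.7). Met and Il1rl2 were thus low in M-BMDM with or without tunicamycin. Tnfrsf9, which encodes 4-1BB, was at 25.1 and 24.3 CPM in GM-BMDM against 0.0805 and 0.237 CPM in M-BMDM, and 103-fold higher (55.6 to 215). The interleukin-1 receptor Il1r1 was 18.1-fold higher (11.5 to 30.0), and the decoy receptor Il1r2 50.4-fold higher (24.2 to 126).
The receptors of the colony-stimulating factors differed in direction. Csf2rb, the shared beta chain of the receptors of GM-CSF, interleukin-3 and interleukin-5, was at 1746 and 1783 CPM in GM-BMDM against 287 and 284 CPM in M-BMDM, and 6.27-fold higher (6.15 to 6.39). Reads of Csf2rb may be shared with its close copy Csf2rb2, which was 2.86-fold higher. Csf2ra, the chain that binds GM-CSF, differed by 0.64 on the log2 scale. Csf1r was at 1002 and 945 CPM in GM-BMDM against 5517 and 4742 CPM in M-BMDM, and 5.02-fold lower (4.96 to 5.07). Csf3r, the receptor of G-CSF, was at 8.57 and 8.18 CPM in GM-BMDM against 190.4 and 199 CPM in M-BMDM, and 24.3-fold lower (21.9 to 27.2), although it was listed as a neutrophil marker and most markers of that list were higher in GM-BMDM. Kit, a mast cell marker and the receptor of stem cell factor, was 39.8-fold higher (27.2 to 60.7). Il6ra was 3.75-fold lower (3.49 to 4.02) and the semaphorin and VEGF co-receptor Nrp1 3.04-fold lower (2.96 to 3.12).

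Chemokine and chemoattractant receptors had 9 of 22 higher and 8 lower. Ccr1, a receptor of CC chemokines, was at 440.1 and 449 CPM in GM-BMDM against 2.44 and 2.87 CPM in M-BMDM, and 157-fold higher (131 to 189). Ccr7, which guides dendritic cells to lymph nodes and was listed as a dendritic cell marker, was at 16.9 and 14.8 CPM in GM-BMDM against 0.188 and 0 CPM in M-BMDM. It had 0 reads in treated M-BMDM and 626 in treated GM-BMDM, at least 207-fold higher against a floor of 3 reads.
Both receptors were low in M-BMDM with or without tunicamycin. P2ry14, a receptor of UDP-glucose, was at 212 and 206 CPM in GM-BMDM against 25.3 and 19.7 CPM in M-BMDM, and 10.5-fold higher (9.75 to 11.3). Ccr2, the receptor of Ccl2, was 7.18-fold higher, and the chemerin receptor Cmklr1 5.65-fold higher. Cx3cr1, the fractalkine receptor, was at 1.61 and 2.50 CPM in GM-BMDM against 21.5 and 34.2 CPM in M-BMDM, and 13.7-fold lower (11.2 to 16.8). The anaphylatoxin receptors C3ar1 and C5ar1 were 3.34-fold lower and 3.42-fold lower, whereas C5ar2 was at 11.7 and 13.7 CPM in GM-BMDM against 8.56 and 4.22 CPM in M-BMDM and 3.25-fold higher (2.74 to 3.86). Cxcr3, the receptor of Cxcl10, was 37.7-fold lower (14.4 to 140.2) on 4 reads in treated GM-BMDM.

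Scavenger and apoptotic-cell receptors had 9 of 28 higher and 5 lower. Olr1, a receptor of oxidised lipoprotein, was at 46.1 and 54.3 CPM in GM-BMDM against 0.0805 and 0.308 CPM in M-BMDM, and 176-fold higher (103 to 331). Its reads in M-BMDM were few with or without tunicamycin. Cd300lf, a CD300 family receptor, was at 169 and 172 CPM in GM-BMDM against 4.56 and 7.09 CPM in M-BMDM, and 24.2-fold higher (21.6 to 27.3). Tyro3 was at 18.1 and 19.1 CPM in GM-BMDM against 0 and 0 CPM in M-BMDM, that is, without a read in either M-BMDM library. It was at least 268-fold higher against a floor of 3 reads in the treated one. Its relative Axl was 5.56-fold higher (5.39 to 5.73), and Mertk, the remaining member of that family, differed by -0.10 on the log2 scale.
Msr1 and Mrc1, scavenger and mannose receptors, were 6.05-fold higher and 2.51-fold higher. Stab1, a clearance receptor, was at 44.6 and 46.2 CPM in GM-BMDM against 1792 and 1263 CPM in M-BMDM. It was 27.3-fold lower (26.1 to 28.6). The folate receptor Folr2 was 195-fold lower (75.9 to 718) on 4 reads in treated GM-BMDM, and the transferrin receptor Tfrc was at 69.9 and 49.2 CPM in GM-BMDM against 710 and 419 CPM in M-BMDM, and 8.53-fold lower (8.15 to 8.93).

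C-type lectin receptors had 10 of 23 higher and 7 lower. Ly75, which encodes DEC-205, was at 117.4 and 112 CPM in GM-BMDM against 3.70 and 3.06 CPM in M-BMDM, and 36.5-fold higher (30.6 to 43.8). Mgl2, a galactose-type lectin, was at 285 and 147 CPM in GM-BMDM against 9.90 and 4.95 CPM in M-BMDM, and 29.8-fold higher (25.9 to 34.3). Mgl2 was lower with tunicamycin in both kinds. Clec9a, a receptor of dead cells and a dendritic cell marker, was 59.4-fold higher (36.4 to 104).
Clec7a, which encodes the beta-glucan receptor dectin-1, was at 2082 and 2078 CPM in GM-BMDM against 413 and 319 CPM in M-BMDM, and 6.51-fold higher (6.396 to 6.63). The related Clec4n (dectin-2) was 11.7-fold higher (11.3 to 12.03). The dectins were thus both higher. Clec4a1 was the lectin farthest in the other direction, at 1.27 and 1.27 CPM in GM-BMDM against 190.1 and 106 CPM in M-BMDM. It was 83.1-fold lower (63.6 to 111). Clec4e, which encodes Mincle, was at 80.7 and 83.4 CPM in GM-BMDM against 575 and 845 CPM in M-BMDM, and 10.1-fold lower (9.79 to 10.5), and Clec12a was 10.4-fold lower (9.80 to 10.98). Clec4a1 and Clec4a3 belong to a family of near copies whose reads may be shared.

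No member of the 14 Toll-like receptors and partners was at least 2-fold higher, and 6 were lower. Tlr9, the sensor of CpG DNA, was at 5.69 and 2.99 CPM in GM-BMDM against 27.9 and 19.1 CPM in M-BMDM, and 6.38-fold lower (5.29 to 7.76). Tlr1 was 3.75-fold lower (3.46 to 4.07) and Tlr2 2.30-fold lower (2.25 to 2.34). Cd14, the co-receptor of lipopolysaccharide, was at 165 and 163 CPM in GM-BMDM against 565 and 532 CPM in M-BMDM, and 3.27-fold lower (3.19 to 3.36), and Ly86, which pairs with Cd180, 2.86-fold lower (2.72 to 3.02). The lower members thus included sensors of DNA and lipoprotein and a co-receptor of lipopolysaccharide. Tlr4 itself differed by 0.38 and its partner Ly96 by -0.69 on the log2 scale. In the additive fit 10 of the 14 were called lower and 0 higher by edgeR's quasi-likelihood test, Tlr9 with log2 fold change -2.47 ± 0.16 SE, adjusted p = 3e-05. Tlr9 too was picked out by its difference in the treated libraries, so its call in this fit is no further evidence.

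Integrins and adhesion molecules had 18 of 40 higher and 7 lower. Itgax, which encodes CD11c, was at 1100.3 and 1059 CPM in GM-BMDM against 11.4 and 15.6 CPM in M-BMDM, and 67.9-fold higher (62.9 to 73.5). It is also a dendritic cell marker and gave most of that list's sum. Itga1, the collagen-binding alpha chain, was at 108 and 104 CPM in GM-BMDM against 1.26 and 1.47 CPM in M-BMDM, and 70.5-fold higher (54.9 to 92.2). E-cadherin, Cdh1, was at 73.5 and 32.1 CPM in GM-BMDM against 0.0268 and 0.190 CPM in M-BMDM. It was 169.5-fold higher (85.8 to 393), and lower with than without tunicamycin in GM-BMDM.
The shared beta chain Itgb2 and its partner Itgam were 4.50-fold higher and 3.56-fold higher, while Itgal, another partner, differed by 0.39 on the log2 scale. The tetraspanin Cd9 was 8.69-fold higher (8.46 to 8.92). Cadm1, an immunoglobulin-type adhesion molecule, was at 5.07 and 4.71 CPM in GM-BMDM against 259 and 217 CPM in M-BMDM. It was 46.1-fold lower (40.05 to 53.3). The proteoglycan Sdc4 was 15.3-fold lower (14.3 to 16.5), whereas its relative Sdc1 was 10.5-fold higher (9.86 to 11.2). The alpha chains Itga4, Itga6 and Itga9 were 2.90-fold lower, 5.13-fold lower and 62.9-fold lower, the last on 4 reads in treated GM-BMDM.

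The ectoenzyme list, which also holds the adhesion receptor gene Adgre1, had 6 of 14 higher and 2 lower. The NAD-consuming enzymes Bst1 and Cd38 went together. Bst1 was at 483 and 499 CPM in GM-BMDM against 12.9 and 10.3 CPM in M-BMDM, and 48.5-fold higher (44.1 to 53.5). Cd38 was at 224 and 214 CPM in GM-BMDM against 10.6 and 8.15 CPM in M-BMDM, and 26.2-fold higher (23.5 to 29.3). Nt5e, or CD73, which makes adenosine from AMP, was at 17.2 and 20.1 CPM in GM-BMDM against 0.0268 and 0.0474 CPM in M-BMDM, and 425-fold higher (117.3 to 3516) on 2 reads in treated M-BMDM.
Entpd1, or CD39, which supplies AMP, differed by 0.07 on the log2 scale. Carbonic anhydrase Car4 was 613-fold higher (169 to 5067) on 2 reads. The lower members were Enpp4 (4.21-fold lower) and Adgre1, the adhesion receptor F4/80, which was at 469.9 and 434 CPM in GM-BMDM against 3163 and 2546 CPM in M-BMDM and 5.86-fold lower (5.77 to 5.96).

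Fc receptors, which bind antibody, had 2 of 8 higher and 3 lower. Fcgr2b, the inhibitory receptor, was at 428 and 368 CPM in GM-BMDM against 106 and 89.3 CPM in M-BMDM, and 4.12-fold higher (3.97 to 4.27). The activating Fcgr3 was at 1386 and 1237 CPM in GM-BMDM against 801 and 388 CPM in M-BMDM, and 3.19-fold higher (3.13 to 3.24). The neonatal receptor Fcgrt was at 38.0 and 36.0 CPM in GM-BMDM against 169 and 112 CPM in M-BMDM, and 3.11-fold lower (2.93 to 3.30). Fcrl1, an Fc receptor-like gene, was at 1.14 and 0.495 CPM in GM-BMDM against 44.6 and 24.9 CPM in M-BMDM, and 50.2-fold lower (32.7 to 81.5). Fcgr1 and Fcgr4 differed by -0.68 and 0.71 on the log2 scale.

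**Figure D3:**
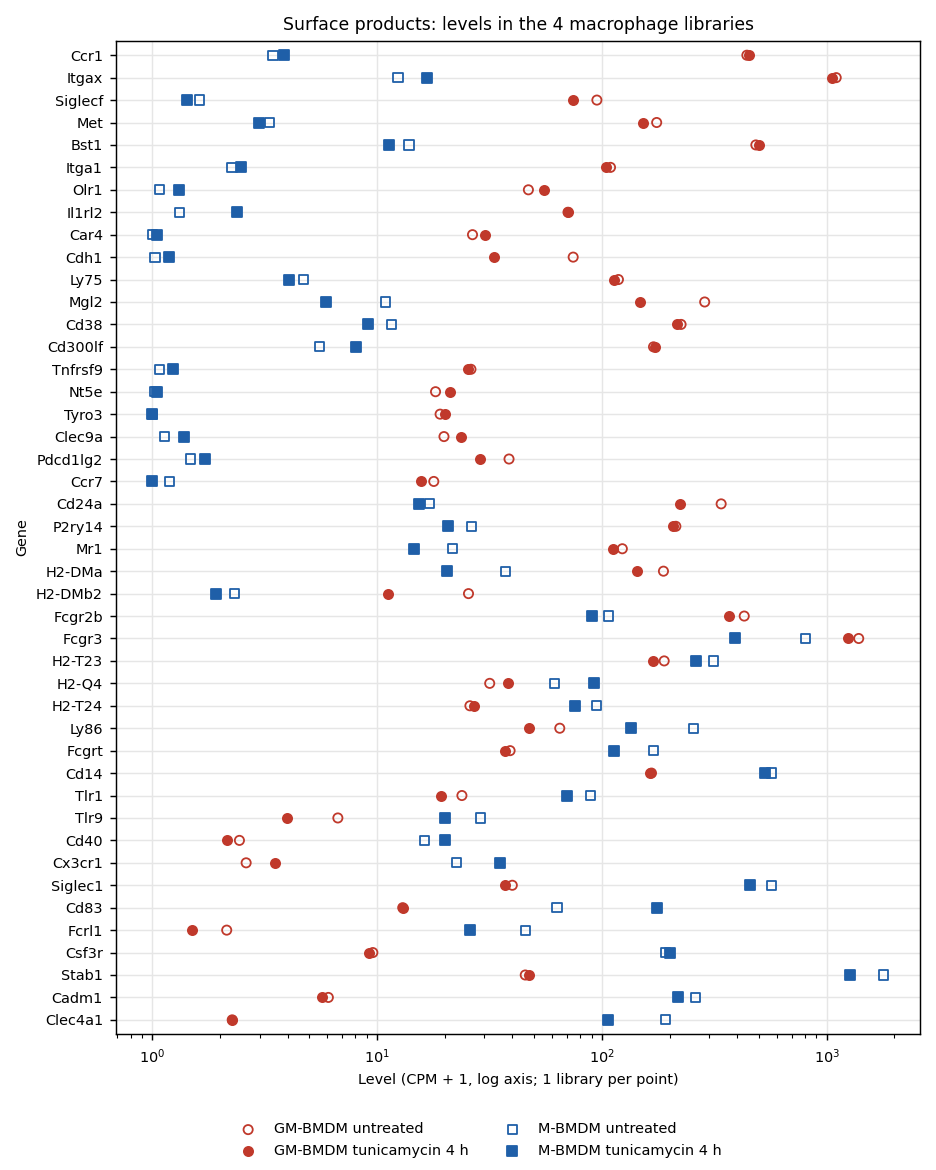
Levels (CPM + 1, log axis) of the 44 surface products named by rule in each of the 4 macrophage libraries, sorted by the treated difference. Circles are GM-BMDM and squares M-BMDM, open for untreated and filled for 4 h of tunicamycin. Ccr1, Itgax, Siglecf and Met sit at the top with the kinds far apart, Clec4a1 and Cadm1 at the bottom, and for Cd83 treated M-BMDM lies above the other libraries.

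Secreted ligands and their receptors were set side by side, in pairs chosen after the values were seen. Csf1 was higher in treated GM-BMDM (52.5 against 12.2 CPM) and its receptor Csf1r lower (945 against 4742 CPM). Tnfsf9 was lower (3.77 against 11.97 CPM) and its receptor Tnfrsf9 higher (24.3 against 0.237 CPM). For Cxcl10 and Cxcr3 both were lower, and for Ccl2 and Ccr2 both were higher. Met was 77.0-fold higher, whereas its ligand Hgf differed by 0.78 on the log2 scale. In these pairs ligand and receptor lay on the same side in some pairs and on opposite sides in others.

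The untreated pair gave the background of kind. In it, 1371 genes (12.4%) were higher and 776 (7.02%) lower in GM-BMDM. The treated and untreated pairs share no library. Of the 263 secreted and surface products past 2-fold in the treated pair, 236 (89.7%) were past it in the same direction in the untreated pair. Over all genes the share was 80.9%, with 1821 genes (16.5% of those compared) past 2-fold the same way in both pairs, 10.9% higher and 5.59% lower. No member was past 2-fold in opposite directions. A further 27 members were past 2-fold in the treated pair alone and 27 in the untreated pair alone. Whether the treated difference departs from the untreated one was not tested, since an interaction term leaves no residual degree of freedom among 4 libraries.

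**Figure D4:**
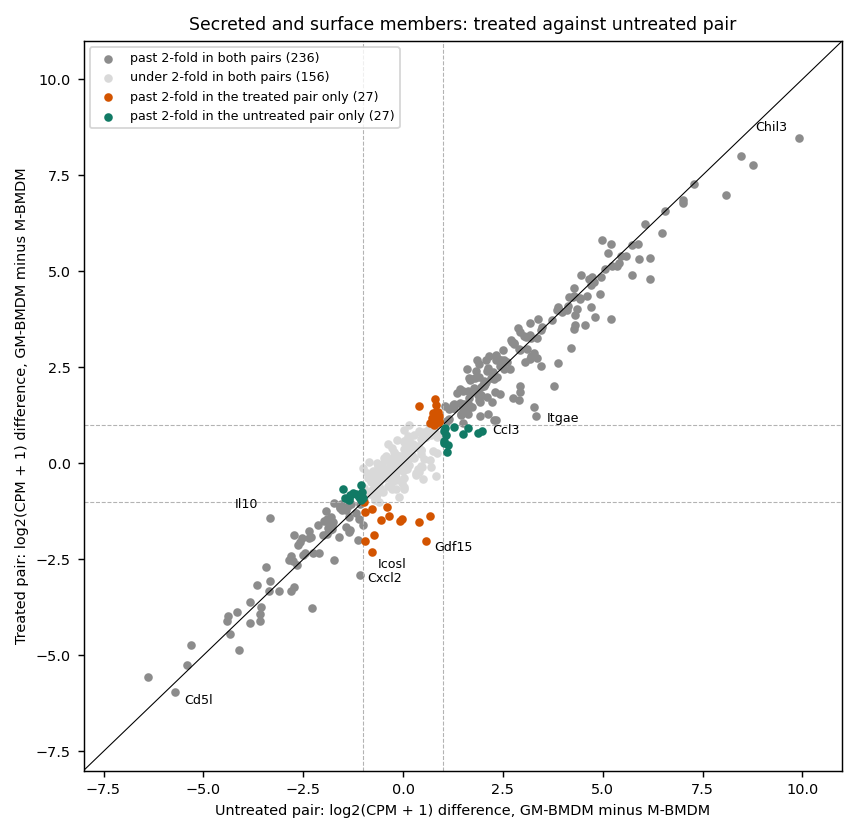
Difference of GM-BMDM and M-BMDM in log2(CPM + 1) for the 446 secreted and surface products, untreated pair on the x axis and treated pair on the y axis, 1 point per gene with the line of equality and dashed lines at 2-fold. Most points lie near the line. Orange points are the 27 members past 2-fold in the treated pair alone, with Gdf15, Icosl and Ccrl2 well below the line.

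The 27 products past 2-fold in the treated pair alone made up 6.05% of members, against 3.9% of all genes compared. Of them, 14 were lower in treated GM-BMDM (2.23% of all genes were so) and 13 higher (1.67%). Gdf15, a stress-induced hormone that is also in the ATF4-CHOP list, was at 16.4 and 25.5 CPM in GM-BMDM against 10.8 and 107 CPM in M-BMDM. Before treatment GM-BMDM had the higher level, by less than 2-fold, and in the treated pair it was 4.18-fold lower (3.92 to 4.48). Icosl differed by -0.78 on the log2 scale in the untreated and -2.32 in the treated pair, and Tnf by -0.94 and -2.03.
The chemokine receptor Cxcr4 was at 122 and 157 CPM in GM-BMDM against 204 and 575 CPM in M-BMDM, and 3.68-fold lower (3.58 to 3.78). Ccrl2, a receptor that holds chemerin at the surface, was at 25.5 and 25.6 CPM in GM-BMDM against 18.97 and 76.3 CPM in M-BMDM, and 2.98-fold lower (2.78 to 3.20). For both genes treated M-BMDM lay above the other 3 libraries. The secreted factor Metrnl was 2.83-fold lower (2.71 to 2.96), the adhesion ligand Icam1 2.59-fold lower (2.51 to 2.67) and the activation marker Cd69 2.93-fold lower (2.49 to 3.47).
The rest of the 14 were Cxcl1, Tnfsf9, Cd86, Tlr2, H2-Q4 and the interferon receptor gene Ifngr1. In 13 of the 14, Ifngr1 being the exception, the level in M-BMDM was higher with than without tunicamycin, by 2-fold or more in 9. In GM-BMDM none was higher by 2-fold or more. The genes were chosen on the same treated libraries, which favours such counts, so they are a description.
The additive fit contains the treated libraries on which the 14 were chosen, so its calls for them are no further evidence. Those not called lower by edgeR were Gdf15 (log2 fold change -0.79 ± 0.57 SE, adjusted p = 0.28), Cxcl1 (log2 fold change -1.45 ± 0.51 SE, adjusted p = 0.052), Ccrl2, Cd69 and Tnfsf9, the last 3 with adjusted p = 0.28, 0.52 and 0.083. In those 5 genes the untreated kinds lay near the same level or in the other order.
Beside these genes, 12 of 20 ATF4-CHOP genes were at least 2-fold lower in treated GM-BMDM and 0 higher, with a median difference of -1.32 against 0.49 in the untreated pair. ER chaperones had 1 of 19 higher and 0 lower, with a median difference of 0.03 against 0.34 in the untreated pair. The 20 chaperones listed summed to 7660.5 CPM in untreated and 8544.6 CPM in treated GM-BMDM, and to 6204.1 and 8269.3 CPM in M-BMDM. N-glycosylation genes had 1 of 28 higher and 0 lower, with a median difference of 0.13 against 0.05 in the untreated pair. The part of a different extent of stress in the differences of the secreted and surface genes was not tested.

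The 13 products higher in the treated pair alone were Fcgr3, Pros1, C5ar2, Scarb1, Mrc1, S100a6, Ctsd, Slpi, Srgn, Tnfrsf21, Tgfbi, Timp1 and Ctss. All 13 were lower in treated than in untreated M-BMDM, which their choice from the treated library favours. Under other scalings, pseudocounts or FPKM, Ctss, Tgfbi, Timp1, Tnfrsf21 and Slpi fell under 2-fold in at least 1 alternative, Timp1 to a difference of 0.35 with a pseudocount of 5 CPM. Fcgr3 differed by 0.79 on the log2 scale untreated and 1.67 treated, Pros1 by 0.82 and 1.53, and C5ar2 by 0.41 and 1.49. The lysosomal protease gene Ctsd was at 8316 and 8465 CPM in GM-BMDM against 4447 and 3605 CPM in M-BMDM. Ctss, which encodes cathepsin S, was at 7293 and 7080.4 CPM in GM-BMDM against 4265 and 3523 CPM in M-BMDM. Ctss, at a difference of 1.01, lay just inside the 2-fold limit and F13a1, at 0.997, just outside it.

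**Figure D5:**
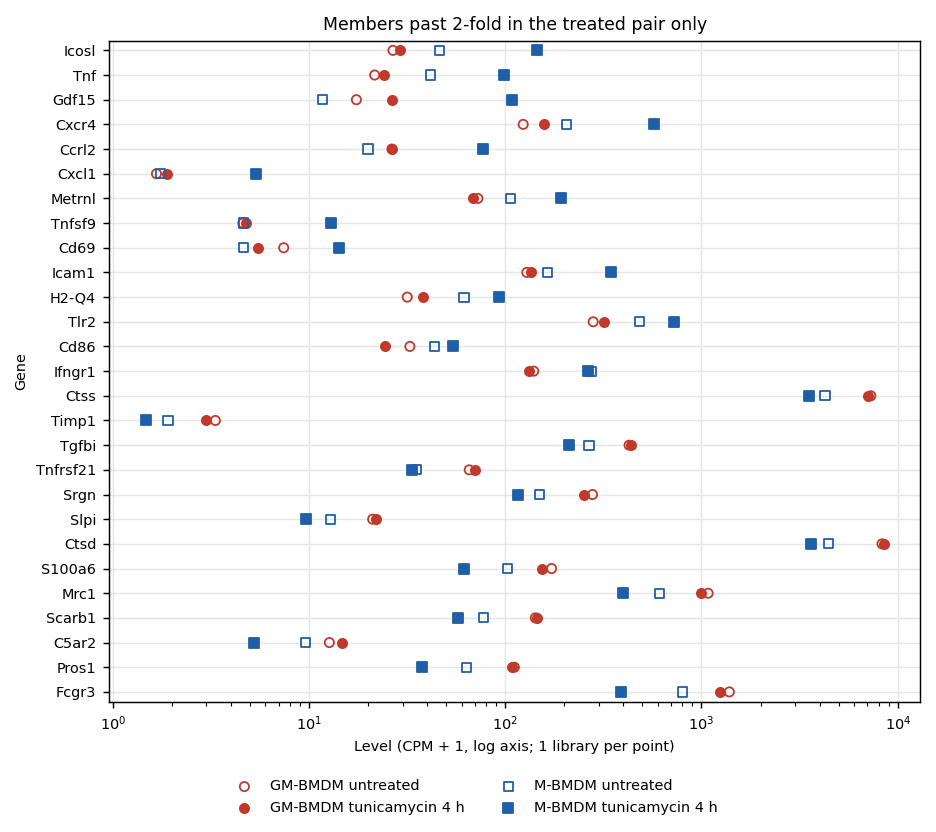
Levels (CPM + 1, log axis) of the 27 secreted and surface products past 2-fold in the treated pair alone, lower ones at the top. Circles are GM-BMDM and squares M-BMDM, open for untreated and filled for 4 h of tunicamycin. In the upper 13 genes treated M-BMDM is the rightmost point, and in the lower 13 it is the leftmost.

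Products past 2-fold in the untreated pair alone included the inflammatory chemokine gene Ccl3, at 193 and 183 CPM in GM-BMDM against 48.2 and 101 CPM in M-BMDM, where the kinds differed by 1.98 on the log2 scale untreated and 0.85 treated. The class II genes H2-Aa and H2-Ab1 were likewise past 2-fold in the untreated pair alone, with H2-Aa at 635 and 343 CPM in GM-BMDM against 314 and 237 CPM in M-BMDM. Both kinds had lower H2-Aa with tunicamycin, GM-BMDM by more. The endocytic receptor Lrp1 was at 1079 and 603 CPM in GM-BMDM against 497 and 433 CPM in M-BMDM. On the M-BMDM side, the high-affinity Fc receptor Fcgr1 was at 92.1 and 84.0 CPM in GM-BMDM against 264 and 135 CPM in M-BMDM. Tlr7, the sensor of single-stranded RNA, was at 245 and 207 CPM in GM-BMDM against 559 and 364 CPM in M-BMDM. The inhibitory receptor gene Pirb was at 334 and 324 CPM in GM-BMDM against 843 and 579.8 CPM in M-BMDM. In these 3 the M-BMDM level was lower with than without tunicamycin, and the treated kinds lay closer together than the untreated.

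Among the 446 members, 17 were also listed as markers of other cell types. Of these, 14 were higher in treated GM-BMDM (Pf4, S100a8, S100a9, Lcn2, Ltf, Ngp, Mmp8, Cpa3, Siglecf, Kit, Ccr7, Clec9a, Itgax and Dpp4), 2 were lower (Csf3r and Ccr3) and Cd209a was under 2-fold. The counts of 175 higher and 88 lower members thus hold 14 and 2 of them. With gene classes taken from the Gene Ontology terms in the deposited table in place of the lists, 192 of 623 extracellular products were higher and 81 lower (43.8% past 2-fold), and 79 of 267 cell surface products were higher and 40 lower (44.6%). These classes were chosen after the data were seen.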

How the data were processed

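RNA of 4 macrophage libraries, 1 per group, was compared from 2 deposited values per gene: read counts and FPKM (fragments scaled by gene length and library size), both made by the authors. Adapter trimming and alignment tools listed in the submitters' processing notes are cutadapt 1.15, HISAT2 and TopHat2 2.1.0, with no role or order. The sources used here name no counter, strand setting or build. Gene positions equalled those of GENCODE M21 (GRCm38) for 21541 of 21743 identifiers (99.1%). Symbols came from the deposited tumour-cell table for 21820 identifiers and from GENCODE for 226, and 14 had none. No column was left without a sample.

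From the counts, CPM was computed with edgeR 4.0.16 (R 4.3.3) TMM effective library sizes, and genes averaging 1 CPM or more across the 4 libraries were kept. Differences are of log2(CPM + 1). The additive fit was edgeR's quasi-likelihood test with adjusted p under 0.05 with a biological coefficient of variation of 11.5%. DESeq2 1.42.0 was an alternative, as were other scalings, pseudocounts, minimum levels and the deposited FPKM. FPKM was otherwise used to compare levels between genes. Depth is given in the report, and with about as many reads in each library the intervals of well-expressed genes are narrow.

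The comparison and its gene lists were chosen with earlier results of these data known. Within each list up to 4 members were named with full values by rule, those with the largest difference among members with at least 5 CPM in either treated library, 88 genes in all. Further genes were named after their values were seen, as were the Gene Ontology classes and the NF-kB motif. Promoter letters are from RefSeq. Protein sequences were not used here. Some genes of the lists are not reported here.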

Additional observations from a re-analysis of the deposited data

How the results depend on the processing

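No paired analysis was possible because each group held 1 library, so that no replicate number could serve as a block, and no library could be left out. The additive fit held tunicamycin as its second term. All 139 genes followed kept the sign of their difference under total reads as library size, DESeq2 size factors, pseudocounts of 0.5 and 5 CPM, and FPKM. Of the 111 past 2-fold, those still past it numbered 107, 110, 111, 103 and 106 in that order. With total reads as library size, 10 receptors were lower (6 in the report), the secreted median was 0.64 (0.75 in the report), and 1274 genes were higher and 1022 lower, 55.5% higher against 61.6%, with the median over all genes shifted by -0.10. With a pseudocount of 5 CPM, lower members numbered 0 CC chemokines, 2 interleukins, 1 TNF ligand, 1 protease and 1 matrix gene, higher members 1 complement gene and 4 class II genes, and the secreted median was 0.38; Cxcl1 was at -0.67, Tnfsf9 at -0.95 and Timp1 at 0.35. With FPKM, 923 genes were higher, 1 protease and 1 matrix gene were lower, 6 matrix and 4 class II genes were higher, and the medians were 0.43 (secreted) and 0.055 (surface, 0.16 in the report). With no minimum level, the matrix median was -0.073, the secreted median 0.070 and the secreted share past 2-fold 39.6%. Among all 22060 genes 1459 were then higher and 887 lower. With a minimum of 5 CPM, 0 CC chemokines and 1 matrix gene were lower, 4 growth factors and 1 complement gene were higher, and the medians were -0.12 for C-type lectins (0.78 in the report) and 0.85 for secreted products. The cause was not tested. The additive fit called 2544 higher and 2064 lower with DESeq2. Ctss, Tgfbi, Timp1, Tnfrsf21, Slpi, Ifngr1, Cxcl1, Tnfsf9, Tnfsf10 and Cd69 fell under 2-fold in at least 1 alternative.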
